A study of Mus musculus with 9 samples.

Results

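The genes described here are the nuclear-encoded genes of the mitochondrial respiratory chain, followed in the olfactory bulb of the mouse. They were chosen by name, as the table entries whose symbols begin with Nduf, Uqcr, Cox4 to Cox8 or Atp5, together with Sdha, Sdhb, Sdhc, Sdhd and Cyc1. The names matched 83 of the 27497 genes in the table, and 78 of these averaged 1 RPKM or more across the 9 libraries. RPKM divides the reads counted for a gene by the gene's length and the size of the library, so levels of different genes can be compared per length. By textbook knowledge 74 of the 78 encode subunits, with 34 in complex I, 4 in complex II, 8 in complex III, 16 in complex IV and 12 in complex V. The other 4 (Ndufaf1, Ndufa12l, Cox4nb and Atp5s) carry matching names without being subunits and are given separately.

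Polyadenylated RNA was sequenced from the olfactory bulbs of adult C57/BL6 mice, 6 to 8 weeks old or older, in groups of 3 separate mice. The first group was kept in air cleaned with activated carbon. The second was taken directly after 30 min with a mixture of odorants. The third, called 120 min, had the same 30 min of odorants and then 90 min of clean air. No transgene, mutation or drug is named for any group, and the sample titles number the mice 1 to 3 in each group without saying what a number marks. The deposited column headers number the mice otherwise, and the title numbers are used here.

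Each complex does a step of oxidative phosphorylation. Complexes I and II pass electrons from NADH and succinate to ubiquinone, complex III passes them to cytochrome c, complex IV passes them to oxygen, and complex V makes ATP from the proton gradient. Complex II is encoded wholly in the nucleus, while the other complexes also hold subunits made inside the mitochondrion. Neurons draw most of their ATP from this pathway, and the glomeruli of the olfactory bulb are known for strong cytochrome oxidase staining.

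Many promoters of these genes are known to carry sites for the nuclear respiratory factor NRF1. In the RefSeq promoters of the mouse build GRCm38.p6 (250 bases before to 50 after the gene start), 58 of the 74 subunit genes had an entry. The word GCGCATGCG, searched on both strands, stood in 7 of the 58 (12.1%), against 3.99% of tested genes with a promoter entry and 1.75% of all promoters. The 7 were Ndufa8 and Ndufa11 of complex I, Uqcr (now Uqcr11) and Uqcrc1 of complex III, Cox6a1 of complex IV, and Atp5k and Atp5l of complex V. The windows of 3 abundant subunits are printed to show the site in its context, 5′ to 3′ on the strand of the gene, with the word in capitals. In each of them the word also overlaps its own reverse complement, shifted by 1 base. The expression table was made on another build, mm9, so these positions serve the sequences only.
Ndufa11 (chr17:56717682-56717730, plus strand): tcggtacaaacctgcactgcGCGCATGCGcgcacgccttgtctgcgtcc
Cox6a1 (chr5:115349092-115349140, minus strand): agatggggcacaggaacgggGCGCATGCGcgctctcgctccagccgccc
Atp5k (chr5:108434421-108434469, minus strand): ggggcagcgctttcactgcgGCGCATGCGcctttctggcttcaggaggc

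The YY1 word AAGATGGCG, also on either strand, stood in 6 of the 58 subunit promoters (10.3%), 5 of them in complex I, against 3.54% of tested genes. The cyclic AMP response element TGACGTCA stood in 4 (6.90% against 3.50%), namely Ndufa10, Ndufa11, Ndufb2 and Uqcrfs1. The word TCAAGGTCA of the estrogen-related receptors stood in Sdhd and Atp5g3 (3.45% against 0.340%). The ETS word CCGGAAGT, bound by GABPA, stood in 5 (8.62% against 8.60%). The SP word GGGGCGGGG stood in 8 (13.8% against 25.9%) and TATAAA in 4 (6.90% against 8.47%). A match describes the letters of a window and is not evidence of binding.

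Some of these genes share sequence with other places in the genome. Of the 35-base words of each gene's principal annotated transcript, 10% or more were also found in a transcript of another locus for 24 of the 78 members (30.8%), against 6.73% of tested genes. Reads from such stretches can match several places, and no source used here says how the authors counted them. The following stretches of coding sequence, each of them shared with annotated pseudogenes, come from 4 subunits with low or 0 values. They are taken from GENCODE M21 transcripts, and no part is capitalised because every base is shared.
Atp5g2, proton-carrying ring of complex V, coding bases 259 to 293: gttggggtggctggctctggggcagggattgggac
Cox7c, complex IV, coding bases 154 to 188: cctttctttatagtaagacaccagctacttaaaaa
Uqcrb, complex III, coding bases 118 to 152: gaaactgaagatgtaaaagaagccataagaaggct
Ndufs5, complex I, coding bases 1 to 35: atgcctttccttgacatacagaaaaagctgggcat

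The Atp5g2 stretch recurs in 3 annotated pseudogenes, those of Cox7c and Uqcrb in 4 each, and that of Ndufs5 in BC002163. Of the coding 35-base words, 404 of 404 were shared for Atp5g2, 155 of 155 for Cox7c, 255 of 299 for Uqcrb and 225 of 284 for Ndufs5. Atp5g2 and Atp5g1, which encode the same ring protein as Atp5g3, were listed at 0 in all 9 libraries, and 100% and 67.1% of their transcript words were shared. Atp5g3, with 0% shared, had a mean of 210 RPKM. Of the 8 members with 30% or more shared words, 6 were among the 14 members below 20 RPKM. The levels and changes of the 24 members with 10% or more shared words are therefore uncertain. Among others described below, they include Cox6a1 (21.0% shared), Ndufc1 (16.0%), Atp5k (16.0%) and Ndufab1 (36.3%).

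**Figure D1:**
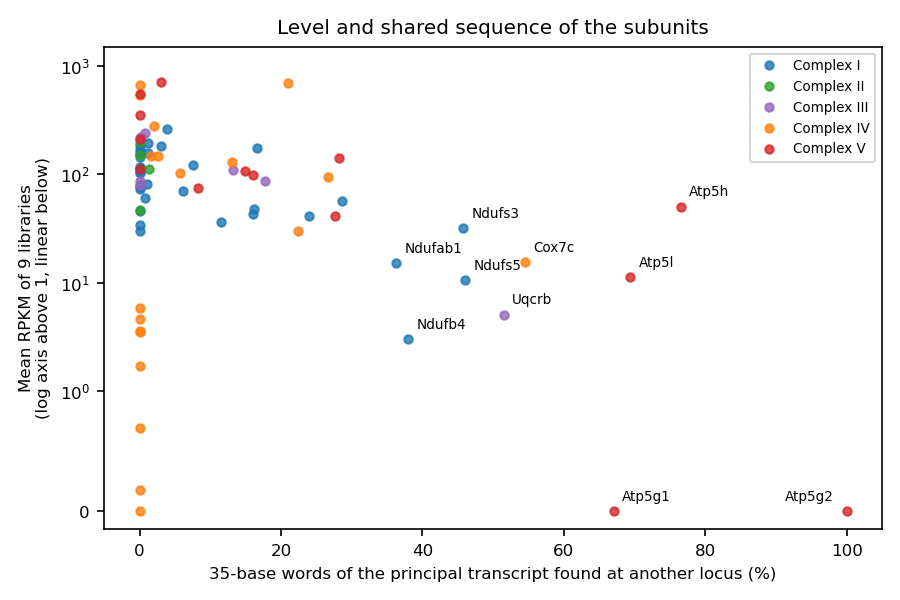
Mean RPKM of the matched subunit genes (vertical axis, logarithmic above 1 and linear below) against the percentage of their 35-base transcript words found at another locus (horizontal axis), each point a gene, coloured by complex. Genes with 30% or more shared words are named; Atp5g1 and Atp5g2 lie at 0, and complex IV genes with 0% shared also lie at low levels.

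The members were abundant. Their median mean level was 96.5 RPKM, against 9.93 RPKM for the 12780 tested genes, and 38 of 78 reached 100 RPKM, a level reached by 4.76% of tested genes. Their transcripts were short, with a median of 751.5 nt against 2863.5 nt. Added up, the 74 subunits made 3.18%, 3.03% and 3.18% of all RPKM in the clean air mice, 2.95%, 2.75% and 2.83% in the 30 min mice and 2.97%, 2.44% and 3.00% in the 120 min mice. In this share the clean air mice lay above all odor-exposed mice, by a small step in the nearest pair. The summed RPKM itself overlapped, with 11210, 10302 and 10821 RPKM in the clean air mice against up to 10303 RPKM after 30 min and 10886 RPKM at 120 min. The sum of clean air mouse 3 included 1547 RPKM of Cox6a1, which no other library had above 738 RPKM.

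In complex I the means ran from 3.01 RPKM for Ndufb4 to 264 RPKM for Ndufa13, with a median of 80.8 RPKM. Ndufa13, an accessory subunit of the membrane arm also known as GRIM-19, was followed by the accessory Ndufb7 (193 RPKM) and by Ndufs7 (188 RPKM), which holds the last iron-sulfur cluster before ubiquinone. Of the other catalytic core subunits, the NADH-binding Ndufv1 had 155 RPKM and Ndufs8 118 RPKM. Ndufv2, partner of Ndufv1, had 80.1 RPKM, Ndufs3 31.7 RPKM (45.8% of its words shared) and Ndufs1, the largest subunit, 30.2 RPKM. These core subunits thus spanned 30.2 to 188 RPKM.

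Complex II had a median of 132 RPKM. Its iron-sulfur subunit Sdhb had 197 RPKM, the flavoprotein Sdha 152 RPKM, and the membrane anchors Sdhc and Sdhd 113 and 46.7 RPKM. In complex III (median 98.1 RPKM) the highest were the core protein Uqcrc1 (242 RPKM), cytochrome c1, encoded by Cyc1 (220 RPKM), and Uqcrq, a small ubiquinone-binding subunit (215 RPKM). The hinge protein Uqcrh had 109 RPKM, Uqcrc2 87.2 RPKM and the Rieske iron-sulfur protein Uqcrfs1 80.2 RPKM. Uqcrb had 5.05 RPKM, with 51.5% of its words shared.

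Complex IV had the widest span, from 1.69 RPKM for Cox4i2 to 694 RPKM for Cox6a1, with a median of 98.6 RPKM. Cox4i1, a regulatory subunit that binds adenine nucleotides, had 666 RPKM and Cox8a 537 RPKM. Cox6b1 followed with 279 RPKM, Cox7a2 with 149 RPKM and Ndufa4, a complex IV subunit despite its name, with 147 RPKM. Cox5a had 129 RPKM, Cox6c 94.5 RPKM and Cox7c 15.3 RPKM. In complex V (median 110 RPKM) the catalytic β subunit Atp5b had 715 RPKM and the α subunit Atp5a1 550 RPKM, the δ subunit Atp5d 352 RPKM and the stalk subunit Atp5o 141 RPKM. The ε subunit Atp5e had 113 RPKM and the rotor shaft Atp5c1 107 RPKM. The lowest measured member was Atp5l at 11.2 RPKM, with 69.4% of its words shared.

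**Figure D2:**
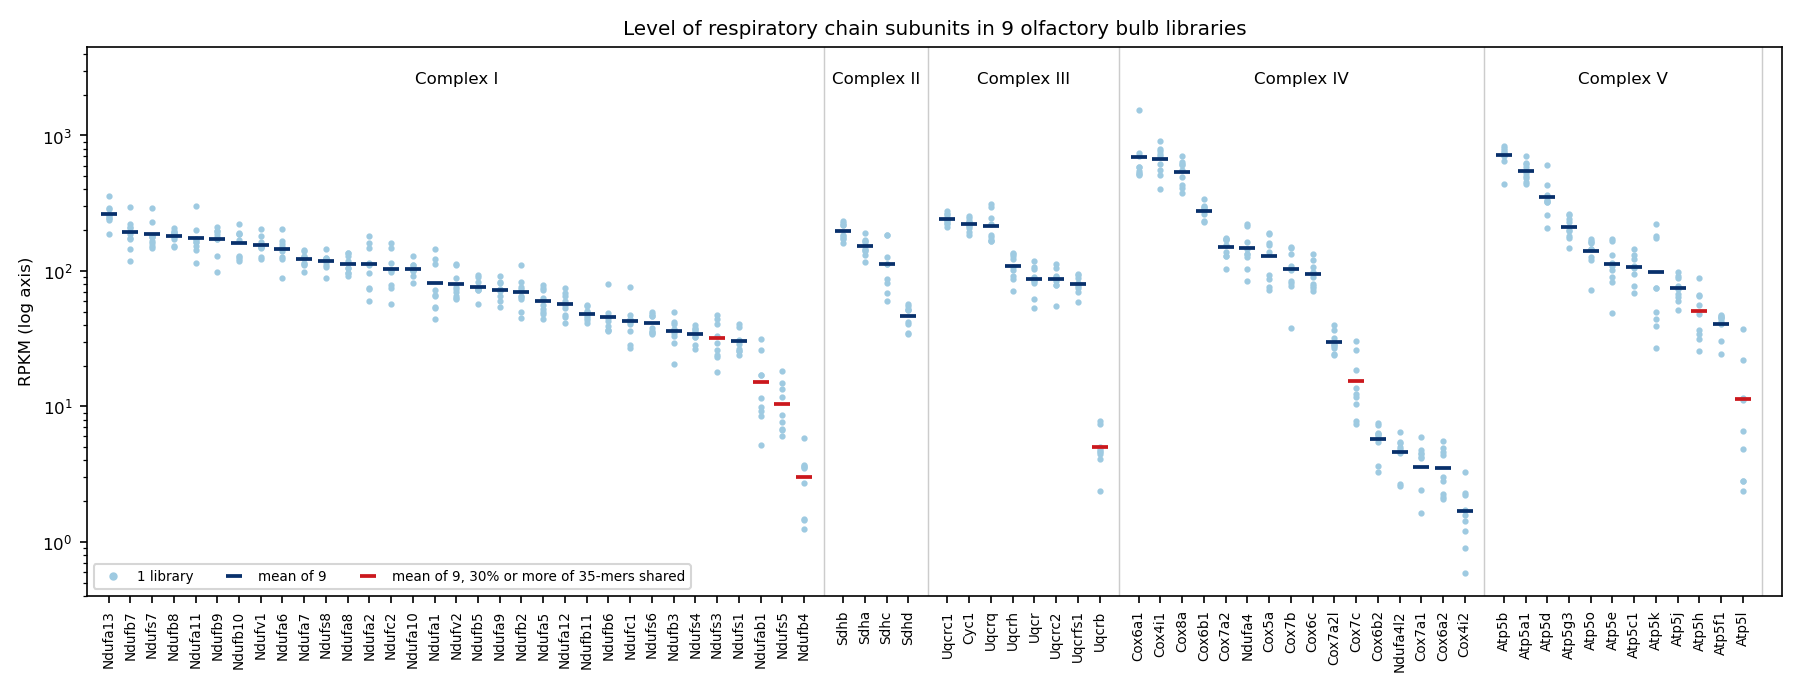
RPKM (vertical axis, logarithmic) of the subunit genes among the members, ordered by mean within each complex. The further gene that is not reported here is left out. Pale points are the 9 libraries and bars the means. Red bars mark genes with 30% or more of their 35-base words shared, and 1 library of Cox7a1, listed at 0, lies off the axis.

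Several subunits of complex IV exist as common and tissue-restricted isoforms, and in the bulb the common form was higher for every pair compared. The lung- and hypoxia-linked Cox4i2 made a median of 0.232% of the Cox4i1 and Cox4i2 total. The heart and muscle forms Cox6a2 and Cox7a1 made 0.408% and 2.57% of their pairs with Cox6a1 and Cox7a2, and Cox8b made 0.0663% of its pair with Cox8a. Cox6b2, known from testis, made 2.18% and Ndufa4l2, known as a hypoxia-induced gene, 3.20% of their pairs. Cox7a2l, a supercomplex factor related to Cox7a2, had 29.9 RPKM. Of the genes below 1 RPKM, Cox8b had 0.694 RPKM, Cox7b2 0.176 RPKM, and Cox8c was listed at 0 in all 9 libraries. The 4 muscle markers, none of them at 0 throughout, summed to 8.62 to 11.3, 10.3 to 12.6 and 9.02 to 13.0 RPKM in the clean air, 30 min and 120 min mice, and their part in the muscle isoforms was not tested.

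Subunits that the name rule missed, because the table gives them older symbols, had levels in the same range: LOC100040340 (Cox5b), 1500032D16Rik (Ndufv3), 1110020P15Rik (Uqcr10), AK164124 (Atp5j2) and 2010107E04Rik (a small complex V subunit). Their clean air means were 203, 123, 182, 175 and 57.9 RPKM. Of the 35-base words of LOC100040340, 30.8% were shared with another locus, so its level is uncertain. None of the 5 was called in any comparison.

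The depth recovered from the deposited values ran from 7.12 to 29.8 M counted units per library (M, mega-units), and 3 counts on a 1 kb gene correspond to 0.101 to 0.421 RPKM. All but the lowest members stood far above that floor. The odor response was present in the same libraries: 5 of 5 activity genes (Fos, Fosb, Arc, Egr1 and Npas4) rose at 30 min by limma. Summed markers of the main bulb neurons lay at 1040 to 1437, 1027 to 1191 and 1145 to 1223 RPKM for mitral and tufted cells in the clean air, 30 min and 120 min mice, and at 1390 to 1761 RPKM over all mice for interneurons. The 5 astrocyte markers summed to 960 to 1452, 1269 to 1466 and 1190 to 1647 RPKM in those groups. The 4 red blood cell markers, 1 of them listed at 0 throughout, summed to 42.9 to 162, 175 to 210 and 52.3 to 197 RPKM. Their median log2 differences at 30 and 120 min were 1.05 and 0.21 for red blood cells, 0.36 and 0.27 for astrocytes and 0.20 and 0.42 for mitral and tufted cells, with no marker called, and their part in the members' differences was not tested. Among the 9 libraries, 120 min mouse 2 held the lowest value of 24 of the 78 members and clean air mouse 3 that of 19, while clean air mouse 3 also held the highest of 19. On the log2 scale the members' median deviation from their own means was -0.26 in 120 min mouse 2, where it was 0.02 for all tested genes, and between -0.02 and 0.13 in the other 8 libraries.

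Mice of 1 group differed strongly for some members. Atp5k, the e subunit at the dimer interface of complex V, had 175, 39.0 and 75.3 RPKM under clean air, 220, 49.6 and 44.4 RPKM after 30 min and 180, 27.2 and 75.4 RPKM at 120 min. In each group mouse 1 stood far above the others, and the groups overlapped throughout. Atp5l, the g subunit of the same region, had 11.5, 2.83 and 37.3 RPKM under clean air, 6.53, 2.36 and 4.81 RPKM after 30 min and 11.2, 2.82 and 21.9 RPKM at 120 min. Its highest library exceeded its lowest 15.8-fold, against 8.11-fold for Atp5k, 6.12-fold for Ndufab1, the mitochondrial acyl carrier protein, and 4.12-fold for Cox7c. The steadiest members were Uqcrc1, Ndufb11 and Cyc1, at 1.31-fold, 1.35-fold and 1.38-fold.

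Summed over its subunits, complex I had 3526 ± 205 RPKM under clean air, 3259 ± 147 RPKM after 30 min and 3123 ± 392 RPKM at 120 min (errors are SD, n = 3 mice). Complex II had 461 ± 32.5, 545 ± 78.1 and 519 ± 49.9 RPKM, complex IV 3206 ± 317, 2684 ± 313 and 2695 ± 481 RPKM, and complex V 2436 ± 281, 2458 ± 110 and 2498 ± 424 RPKM. Complex III had 1168, 1195 and 1082 RPKM in the clean air mice, 1012, 1041 and 977 RPKM after 30 min and 1050, 870 and 1019 RPKM at 120 min. The clean air mice lay above all odor-exposed mice in this sum, which is dominated by Uqcrc1, Cyc1 and Uqcrq. For complex I the 30 min mice reached 3401 RPKM, just below the lowest clean air mouse at 3403 RPKM, and 1 mouse at 120 min lay inside the clean air range. The groups overlapped in the other sums. In whole tissue, fewer cells of a type and less RNA per cell cannot be told apart.

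**Figure D3:**
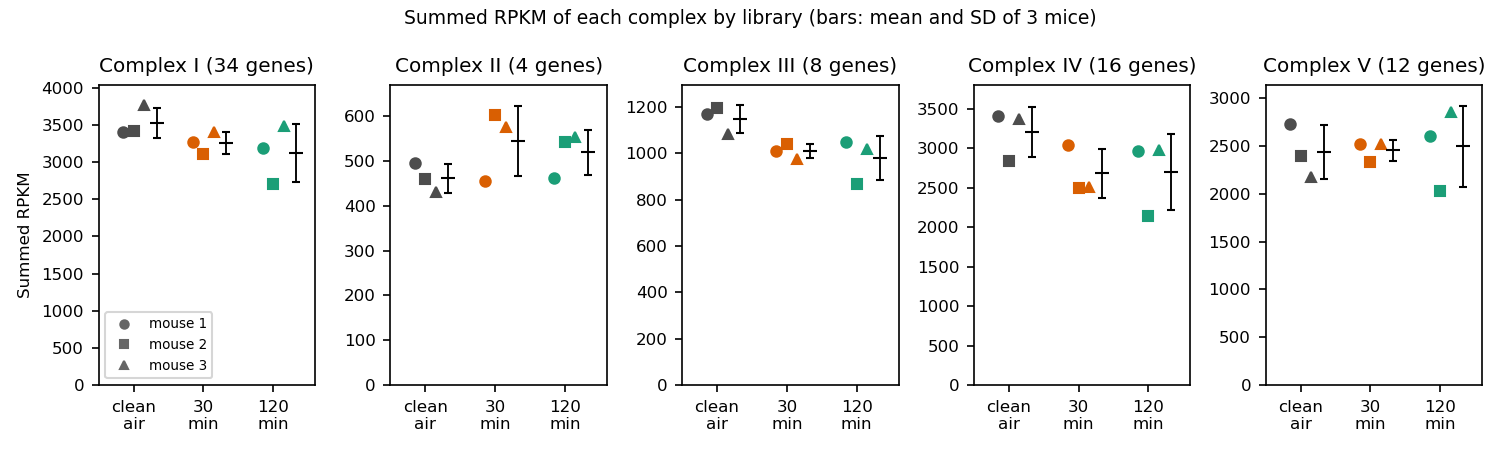
Summed RPKM of the subunits of each complex in the 9 libraries (vertical axis, from 0), by group, with the marker shape giving the mouse number and bars the mean and SD of 3 mice. For complex III the clean air mice lie at 1082 to 1195 RPKM and the exposed mice at 870 to 1050 RPKM.

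At 30 min of odor no member was called. By limma, with Benjamini-Hochberg adjustment over 12780 genes, 0 of 78 passed an adjusted p under 0.05 (0.141% of all tested genes did), and the lowest adjusted p of a member was 0.775. An unadjusted p under 0.05 was reached by 5 members (6.41%, against 5.92% of tested genes), all of them lower than in clean air, where 2.3% of tested genes were lower at that level. The 30 min and clean air mice did not overlap for 7 members (11.4% of tested genes), 6 of which were lower (4.08% of tested genes were). The share at an unadjusted p is near the background, and the count of 5 fell to 2 without clean air mouse 3 or 30 min mouse 2, to 1 without 30 min mouse 3, and rose to 8 without clean air mouse 1. It was 3 with clean air mouse 3 and 120 min mouse 2 both left out, an alternative also chosen after seeing the data. The share of all tested genes was not taken with mice left out, so these shifts cannot be set against the background.

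The median log2 difference at 30 min was -0.05 for the members and 0.08 for all tested genes, and 43 of 78 members were below 0 (55.1%, against 38.2% of tested genes). Errors of log2 differences are standard errors of the fit on log2(RPKM + 0.5). By complex the medians were -0.05 for I, 0.23 for II, -0.12 for III, -0.19 for IV and -0.10 for V. The median of complex IV turned to 0.03 without 30 min mouse 2 and to 0.04 when members with 10% or more shared words were left out, an alternative chosen after seeing the data. Complex II alone had all its members (4 of 4) above 0, as were 7901 of 12780 tested genes, but whether it differed from the others was not tested. Its principal transcripts were also longer, with a median of 2065.5 nt against 631.5 to 955 nt in the other complexes. The part of length in its difference was not tested. Clean air mouse 3 stood apart for complex II, with a median deviation of -0.39 on the log2 scale, against -0.16 to 0.24 in the other libraries.

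Of complex I, Ndufb2, an accessory subunit of the membrane arm, had 75.8, 110 and 82.3 RPKM under clean air and 65.8, 44.7 and 62.0 RPKM after 30 min. All 3 odor mice lay below all 3 clean air mice. The log2 difference was -0.63 ± 0.21 (limma adjusted p = 0.775). Ndufb10, another accessory subunit of that arm, had 187, 187 and 223 RPKM under clean air and 170, 129 and 123 RPKM after 30 min. Its groups did not overlap either, at -0.51 ± 0.21 (limma adjusted p = 0.818). The core subunits named above lay between -0.33 (Ndufs3) and 0.21 (Ndufs8).

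In complex II, Sdhc had 86.8, 112 and 60.3 RPKM under clean air and 80.8, 183 and 112 RPKM after 30 min. The groups overlapped, and the difference of 0.50 ± 0.39 was the highest of the subunits (limma adjusted p = 0.845). Sdha had 0.27 ± 0.18, Sdhd 0.19 ± 0.23 and Sdhb 0.07 ± 0.19. In complex III, Cyc1 had 255, 233 and 231 RPKM under clean air and 215, 193 and 218 RPKM after 30 min. These groups were apart, but by a small step of -0.20 ± 0.16 (limma adjusted p = 0.845).

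In complex IV, Cox6a1 had 582, 738 and 1547 RPKM under clean air and 511, 516 and 544 RPKM after 30 min. The difference of -0.74 ± 0.31 (limma adjusted p = 0.818) came with 1 clean air mouse at more than any other library. Cox7a2 was the 1 member whose 30 min mice all lay above clean air, with 155, 138 and 128 RPKM under clean air and 172, 169 and 172 RPKM after 30 min (0.29 ± 0.19, limma adjusted p = 0.841). Cox7b had 0.36 ± 0.44. In complex V, Atp5j, which encodes coupling factor 6 of the stalk, had 89.3, 91.9 and 98.2 RPKM under clean air and 73.3, 67.4 and 60.1 RPKM after 30 min. The groups did not overlap, and the difference was -0.48 ± 0.17 (limma adjusted p = 0.790). Atp5l had the lowest difference of any member, -1.27 ± 0.84, on groups that overlapped.

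At 120 min, again by limma, 0 of 78 members were called (0.0861% of all tested genes), with a lowest adjusted p of 0.345. An unadjusted p under 0.05 was reached by 8 members (10.3%, against 9.57% of tested genes), all lower than in clean air (3.85% of tested genes were lower at that level). Groups did not overlap for 7 members (13.1% of tested genes), 6 of them lower (5.27% of tested genes). The count of 8 fell to 4 without 30 min mouse 3 or 120 min mouse 3, whose removal also changes the shared spread, and to 4 with clean air mouse 3 and 120 min mouse 2 both left out. It rose to 11 without 120 min mouse 1, and to 9 with libraries scaled to a common median. Again the share of all tested genes was not taken in these alternatives, so the shifts cannot be set against the background. The same clean air mice serve in both comparisons with clean air, so the values for 30 and 120 min are not independent.

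The median log2 difference at 120 min was -0.14 for the members against 0.03 for all tested genes, with 55 of 78 members below 0 (70.5%, against 46.1%). By complex it was -0.13 for I, 0.14 for II, -0.18 for III, -0.20 for IV and -0.21 for V. Without 120 min mouse 2, the library with the lowest members, the median of complex V turned to 0.04. Transcript length moved with these values: tested genes with a principal transcript under 1000 nt had a median of -0.10 and the others 0.04, while the 49 members under 1000 nt had -0.17 and the other 29 had -0.05. At 30 min the short and longer members had -0.16 and 0.07, and short and longer tested genes 0.02 and 0.09. The part of length in the members' differences was not tested.

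**Figure D4:**
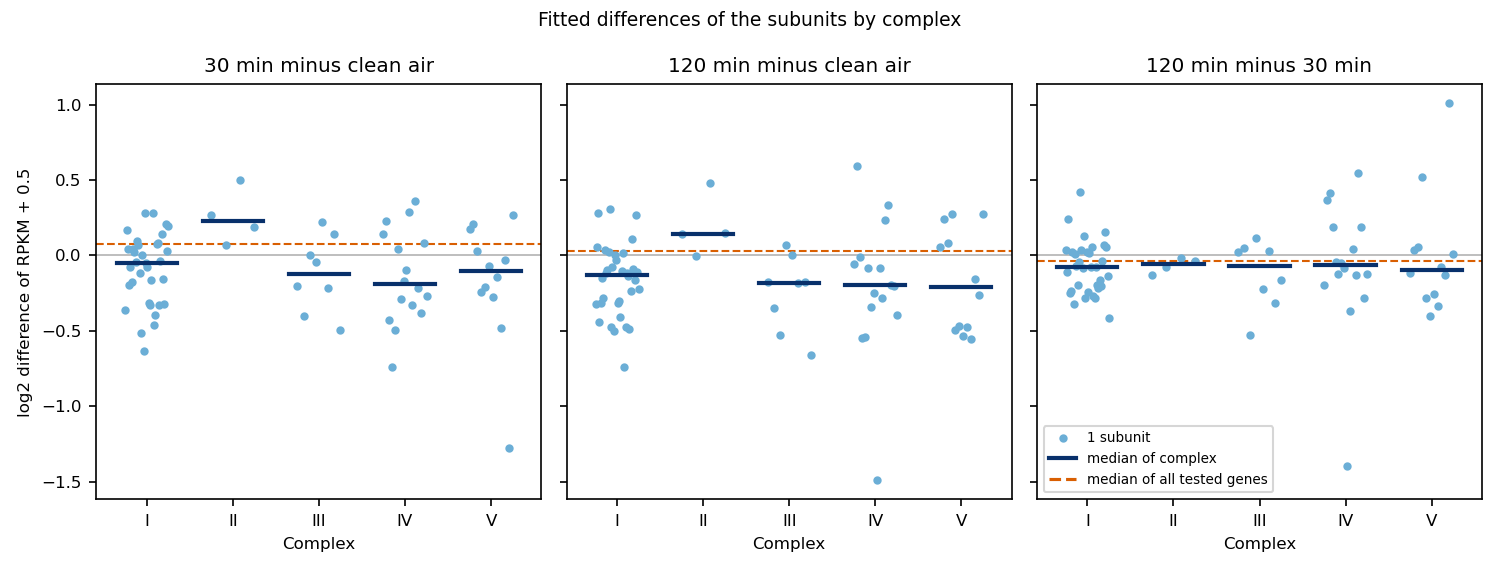
Fitted log2 differences of RPKM + 0.5 (vertical axis) for each subunit (points), by complex, in the 3 comparisons; thick bars are medians of a complex and the dashed line the median of all 12780 tested genes. The medians of complexes I, III, IV and V lie below the dashed line in the comparisons with clean air, and that of complex II above it.

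Uqcrq (ENSMUSG00000044894) of complex III had the lowest adjusted p of any member. It had 221, 295 and 314 RPKM under clean air, 179, 245 and 165 RPKM after 30 min and 183, 170 and 166 RPKM at 120 min. The 120 min mice all lay below the clean air mice, while 1 of the 30 min mice lay within their range. The log2 difference was -0.66 ± 0.20 at 120 min (95% interval -1.09 to -0.23, limma adjusted p = 0.345) and -0.50 ± 0.20 at 30 min (limma adjusted p = 0.818).

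Atp5j (ENSMUSG00000022890) had 76.9, 51.1 and 64.6 RPKM at 120 min, below every clean air mouse, with a difference of -0.55 ± 0.17 (limma adjusted p = 0.360). Atp5g3, the measured gene of the c ring, had 229, 259 and 262 RPKM under clean air and 174, 148 and 198 RPKM at 120 min. Those groups were also apart, at -0.53 ± 0.17 (limma adjusted p = 0.366). The catalytic Atp5b and Atp5a1 had 0.24 ± 0.23 and 0.06 ± 0.21.

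Ndufc1, an accessory subunit of complex I, had 44.2, 75.6 and 47.5 RPKM under clean air, 41.7, 35.8 and 40.7 RPKM after 30 min and 27.2, 43.3 and 28.4 RPKM at 120 min. Both exposed groups lay below clean air, at 120 min by a narrow gap, and the log2 difference there was -0.74 ± 0.24 (limma adjusted p = 0.364). Ndufb2 had 74.0, 50.2 and 64.3 RPKM at 120 min, again below every clean air mouse (-0.50 ± 0.21, limma adjusted p = 0.495). The core subunits of complex I named above ran from -0.49 (Ndufs3) to 0.27 (Ndufs8).

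The lowest difference at 120 min was that of Cox7a1, at -1.49 ± 0.65 (limma adjusted p = 0.501). It had 4.18, 4.74 and 4.26 RPKM under clean air, 5.97, 2.43 and 4.53 RPKM after 30 min and 4.45, 1.63 and 0 RPKM at 120 min. The library listed at 0, of 7.12 M counted units, gave most of that difference, and the other 120 min mice overlapped with clean air or lay below it. Cox4i2, with 1.57, 1.21 and 0.900 RPKM under clean air and 2.30, 2.22 and 1.73 RPKM at 120 min, was the 1 member whose 120 min mice all lay above clean air (0.59 ± 0.40). Sdhc stayed at 0.48 ± 0.39, with 68.4, 185 and 127 RPKM at 120 min.

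**Figure D5:**
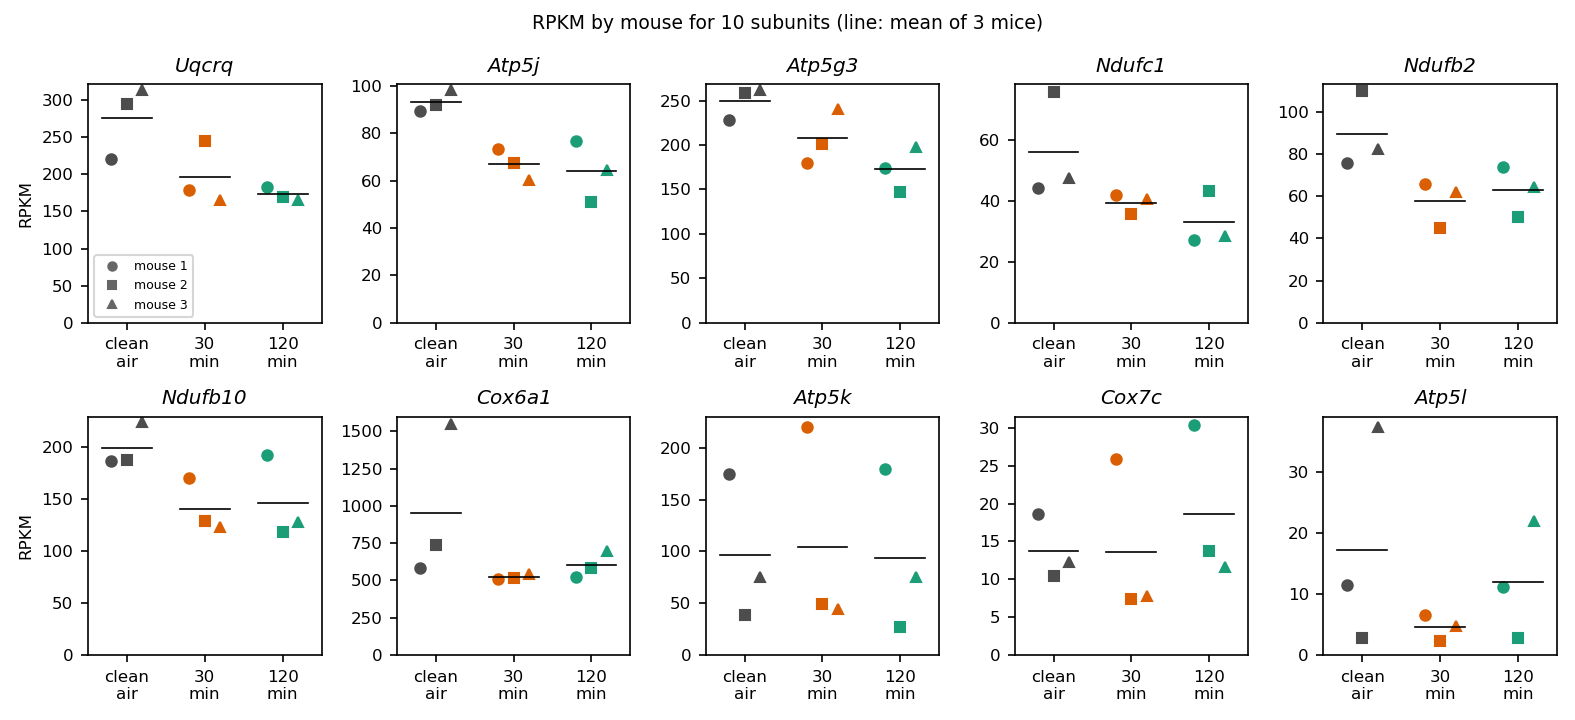
RPKM by mouse (vertical axes, from 0) for 10 subunits in the 3 groups; marker shapes give the mouse number and lines the group means. The upper row and Ndufb10 show members with lower means after odor, Cox6a1 the clean air mouse at 1547 RPKM, and Atp5k, Cox7c and Atp5l wide spread within groups.

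Between 120 and 30 min, 0 of 78 members were called by limma (0.0782% of all tested genes) and 0 had an unadjusted p under 0.05 (3.36% of tested genes), while leaving out 1 mouse gave up to 4, without 120 min mouse 1. Only the groups of Ndufb5 did not overlap (10.6% of tested genes), with 73.2, 90.9 and 73.3 RPKM after 30 min and 71.9, 56.8 and 72.1 RPKM at 120 min, a difference of -0.24 ± 0.17. The median was -0.08 for the members and -0.03 for all tested genes. By complex it was -0.08, -0.06, -0.07, -0.06 and -0.10 for I to V, and those of IV and V turned to 0.07 and 0.11 without 120 min mouse 2. The lowest differences were those of Cox7a1 (-1.39 ± 0.65), Uqcrb (-0.53 ± 0.30) and Atp5s (-0.43 ± 0.29), and the highest those of Atp5l (1.01 ± 0.84), Cox7c (0.55 ± 0.47) and Atp5d (0.52 ± 0.29). The F test over the 3 groups called 0 of 78 members (0.164% of all tested genes), and 5 had an unadjusted p under 0.05 (6.41%, against 6.64% of tested genes). With 1 mouse left out the latter count ran from 3, without clean air mouse 2 or 30 min mouse 2, to 7, without mouse 1 of any group. For the counts given here with 1 mouse left out, the share of all tested genes was not taken.

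Among all tested genes the smallest called log2 difference was 1.12 at 30 min, 1.20 at 120 min and 1.65 between them, values that depend on which genes changed and on their own errors. The members' standard errors had a median of 0.24 and ran from 0.16 to 0.84. The absence of calls does not show that the members' levels were equal.

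Of the 4 members that are not subunits, Cox4nb, now named Emc8 and part of the ER membrane complex, had 32.1 RPKM, Ndufa12l, named Ndufaf2 in GENCODE and an assembly factor, 5.90 RPKM, Ndufaf1, another assembly factor, 4.84 RPKM, and Atp5s, known as coupling factor B, 2.82 RPKM. Atp5s had the highest 30 min difference of all members, 0.53 ± 0.29 (limma adjusted p = 0.832).

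Genes around the chain, from lists chosen by function, gave no call either in any of the 3 comparisons. The 15 citric acid cycle genes had a median log2 difference of 0.17 at 30 min, with 15 of 15 above 0 (7901 of 12780 tested genes were), and 0.06 at 120 min, with 10 of 15 above. Clean air mouse 3 stood apart for this list, with 1 of 15 genes above its own mean and a median deviation of -0.30 on the log2 scale. The 15 glycolysis genes had 0.10 and 0.02, the 12 carrier and ATP-handling genes -0.02 and -0.10, the 26 assembly factors 0.00 and -0.09, and the 13 biogenesis regulators 0.12 and 0.03. Cytosolic ribosomal proteins, taken as another set of short and abundant transcripts, had 0.03 and -0.13 over 43 tested genes. They were 43 of 76 genes found, of which 25 were listed at 0 in all libraries.

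The 7 tested subunit genes of the mitochondrial genome had medians of 0.40 and 0.30, with wide spread. Cytochrome b, encoded by mt-Cytb, had 863, 3028 and 697 RPKM under clean air, 1030, 2648 and 1279 RPKM after 30 min and 842, 2489 and 1629 RPKM at 120 min. In each group mouse 2 stood above the others, and the groups overlapped. All 7 genes were higher in mouse 2 than in mice 1 and 3 of every group. Of the 13 mitochondrial genome subunits found, 5 were listed at 0 in all libraries, as was Cycs, the gene of cytochrome c, with 30.9% of its words shared.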

How the data were processed

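Per the labels' protocols, polyadenylated RNA from Trizol extracts was freed of DNA and read from both fragment ends. Reads were aligned with Bowtie to mm9, per the submitters' processing notes; no source used here states the annotation, the counting of reads, their strand or the treatment of multiple matches. RPKM values of 27497 genes in 9 columns, as the authors deposited them, were used without rescaling. The 12780 genes averaging 1 RPKM or more entered the test. It used limma 3.58.1 (R 4.3.3) on log2(RPKM + 0.5) (trend, 1 fit over 9 libraries, 6 residual degrees of freedom, two-sided, Benjamini-Hochberg). Added-up RPKM of a complex weights abundant genes. Depth was recovered from RNAs under 200 nt: with lengths reduced by 34 nt, 86.3% to 93.6% of values were whole within 0.05, against 29.2% to 32.4% with full length. This is an estimate, and the floor of 3 counts covers counting error only. Shared words came from GENCODE M21, promoters from RefSeq.

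The members and lists were chosen with earlier results of these data known. Genes were named by a rule: any called member, the 3 highest and the lowest of each complex, the 3 lowest and 3 highest differences of each comparison, core subunits, isoform sets and members by name only. Others (Atp5j, Atp5k, Ndufb5, Ndufb10, Ndufb11, Ndufab1, Ndufs5, Ndufa1, Ndufa2 and the promoter matches) were named after their values were seen. A further gene is not reported here. Alternatives covered pseudocount, filter, scaling, trend, groups in the fit, placement by symbol and each mouse left out.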

Additional observations from a re-analysis of the deposited data

How the results depend on the processing

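No member was called under any alternative that was run, in any comparison; the lowest adjusted p of a member ranged from 0.333 to 1.00 at 30 min, 0.170 to 0.703 at 120 min and 0.723 to 1.00 between them. Of 394 recomputed values, 390 were unchanged counts or medians that moved by less than the spread between mice. A change of sign within that spread was not counted as a move. With 1 mouse left out, the median of complex V ranged from -0.30 to 0.040 at 120 min and from -0.13 to 0.11 between 120 and 30 min, and that of complex I at 120 min from -0.22 to -0.11. The highest values of complex V came without 120 min mouse 2 and the lowest of complex I without 120 min mouse 3. With clean air mouse 3 and 120 min mouse 2 both left out, chosen after seeing the data, complex V had 0.11 between 120 and 30 min. The cause was not tested.

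Mice of different groups share numbers in the sample titles, and nothing there says that a number marks a shared day or litter. The deposited column headers carry other numbers. In them only mouse 1 has the same number in all 3 groups, while the other mice match between the odor groups but not with clean air. The comparisons below use the title numbers. Recovered depth differed between these numbers. In the clean air, 30 min and 120 min groups it was 10.45, 8.79 and 9.82 M counted units for mouse 1. For mouse 2 it was 22.1, 28.7 and 24.0 M, and for mouse 3 29.8, 17.4 and 7.12 M. The part of depth in the differences between numbers was not tested. Over all tested genes the deviations of same-numbered mice correlated at 0.081 to 0.444 and those of other pairs at -0.38 to 0.0865. Over the members the ranges were 0.203 to 0.795 and -0.584 to 0.0754. In 18 of 18 cases a mouse correlated best with the mouse of its own number in another group. These cases are not independent, since each correlation serves both of its mice and the deviations are centred within groups of 3. What the numbers mark was not tested. Not every same-number pair passed 0.1 over all genes. The mice are separate animals, so the planned fit had no block for the number, and a fit with that block was run as an alternative. With the replicate block 0 members were called in each comparison by limma. An unadjusted p under 0.05 was then reached by 12 members at 30 min (15.4%, against 10.9% of tested genes), 15 at 120 min (19.2%, 14.9%) and 7 between them (8.97%, 6.68%). In the F test with the block it was reached by 13 members, but the share of all tested genes was not taken there, so that count has no background. The number itself was called for 3 members (3.85%, against 0.689% of tested genes), Atp5k, Ndufa1 and Ndufa2, and had an unadjusted p under 0.05 for 36 (46.2%, against 23.6%). Depth limits the lowest members, since 3 counts are up to 0.421 RPKM on 1 kb.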
